A study of Mus musculus with 24 samples.

Results

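Peroxisomal oxidation and peroxisome assembly were followed through 35 genes in mouse liver: 20 enzymes and transporters of peroxisomal fatty acid oxidation and peroxide removal, 13 peroxins (Pex genes, whose proteins build the organelle) and 2 peroxisomal membrane proteins, Pxmp2 and Pxmp4. They were chosen by symbol from 34945 named genes, by a rule that uses no measured value, though with earlier results of these data known, and all 35 had a mean of at least 1 TPM, the minimum that left 10551 genes for testing. TPM is a gene's share of a library's transcripts corrected for transcript length, so that genes can be compared with each other within a library. The study sequenced polyadenylated RNA from the livers of 24 mouse samples, 3 in each of 8 groups, made of 4 genotypes on 2 diets. The genotype called WT carried floxed alleles of both transcription factor genes (FoxO1lox/lox and PPARαlox/lox), and no Cre is stated for it. LFKO was FoxO1-/-, LPKO was PPARα-/- and LFPKO lacked both, each by Albumin-cre, which is active mainly in hepatocytes and leaves the genes in most other cells of the liver. Diets lasted 3 weeks, regular (RD) or high in fat (HFD), and a fast of 4 h preceded the taking of the liver in all groups. Age and sex are not given, and nothing states that the 3 samples of a group are separate mice, so each p-value speaks only of the spread among the samples sequenced. Depth is unknown, because the files hold TPM and no counts.

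Peroxisomes shorten very long, branched and dicarboxylic fatty acids that mitochondria handle poorly. Fatty acyl-CoA enters through ABC transporters of the membrane, an acyl-CoA oxidase opens each round and makes hydrogen peroxide, a bifunctional protein carries out the hydration and the dehydrogenation that follow, a thiolase releases the shortened chain, and catalase removes the peroxide. Peroxins place proteins in the membrane, import the matrix enzymes from the cytosol and drive growth and division of the organelle. PPARα, a nuclear receptor activated by fatty acids, is the classical regulator of peroxisomal oxidation genes in rodent liver, named for the peroxisome proliferation that its ligands cause. FoxO1 is the forkhead factor that insulin signalling keeps out of the nucleus, known in liver for its part in gluconeogenesis and lipid metabolism.

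The sequence in front of the genes is shown for 4 members, because the data bear on how differently genes of the same organelle moved: Pex16, Pex11a and Acaa1b were called lower in LPKO than in WT on the regular diet, though not on the high-fat diet with the deposited values, and Cat, the catalase gene, was among the steadiest. The letters are the gene's own strand, 5′ to 3′, from the RefSeq promoter table on GRCm38.p6, up to 250 bases before the annotated start without bases of any annotated exon. Pex16, at chr2:92374426-92374675 on the plus strand, is the first of 2 windows given for that gene. Pex11a is shown at chr7:79743184-79743381, Acaa1b at chr9:119157094-119157343 and Cat at chr2:103485161-103485403, all on the minus strand. Capitals mark AGGTCA, the half-site that nuclear receptors such as PPARα bind.
Pex16: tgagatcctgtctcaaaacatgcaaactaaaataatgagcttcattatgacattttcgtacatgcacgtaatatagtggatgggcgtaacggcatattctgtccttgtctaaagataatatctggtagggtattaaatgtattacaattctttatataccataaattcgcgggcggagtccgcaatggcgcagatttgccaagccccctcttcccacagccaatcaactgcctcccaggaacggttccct
Pex11a: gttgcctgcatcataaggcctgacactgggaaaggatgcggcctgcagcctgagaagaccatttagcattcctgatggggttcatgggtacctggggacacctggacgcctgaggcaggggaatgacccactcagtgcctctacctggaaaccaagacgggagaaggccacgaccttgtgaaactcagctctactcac
Acaa1b: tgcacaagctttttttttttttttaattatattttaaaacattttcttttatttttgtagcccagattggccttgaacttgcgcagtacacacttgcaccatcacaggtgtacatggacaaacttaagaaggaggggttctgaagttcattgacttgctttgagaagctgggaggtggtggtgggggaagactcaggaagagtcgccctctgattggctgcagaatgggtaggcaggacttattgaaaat
Cat: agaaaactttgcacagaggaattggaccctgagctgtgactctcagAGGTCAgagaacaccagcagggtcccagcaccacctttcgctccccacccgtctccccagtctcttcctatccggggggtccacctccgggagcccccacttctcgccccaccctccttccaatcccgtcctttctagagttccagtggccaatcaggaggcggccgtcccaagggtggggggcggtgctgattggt
The table held a window for 28 of the 35 members, without Pex2, Pex19, Pxmp2, Hsd17b4, Abcd2, Amacr and Nudt12. Searched on both strands, AGGTCA occurred in 3 of those 28 (Cat at 204 to 199 bases before the start, Scp2 at 109 to 104 and Pex11g at 173 to 168), against 15.8% of all 27025 genes with a window. None of these 3 genes was called in the comparisons of PPARα-/- with WT below. The direct repeat of the half-site with 1 base between, AGGTCANAGGTCA, occurred in 0 members and in 0.0407% of all genes, and GTAAACA, a core that FoxO factors bind, in 0 members and in 3.54% of all genes. A match is a description of these letters and no site, and its absence says only that the letters are not in these windows. By base composition the 4 printed stretches ranged from 41.6% GC in Acaa1b through 42.8% in Pex16 and 56.6% in Pex11a to 61.7% in Cat.

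The labels were checked against both targeted genes. Foxo1 stood at 0.250 to 0.484 TPM in the 12 LFKO and LFPKO libraries and at 4.06 to 9.94 TPM in the other 12. Ppara stood at 57.5 to 87.3 TPM in the libraries labelled LPKO and LFPKO and at 37.1 to 68.8 TPM in the others, so its whole-gene level does not check the deletion, and every direction given for PPARα rests on the labels. Hepatocyte markers were present throughout (8 genes, summed to 39163 to 92510 TPM per library), adipocyte markers were at 0.156 TPM or below with 1 of 3 at 0 in every library. Major urinary protein transcripts (Mup), abundant liver secretory transcripts, took from 5.94% ± 0.901 (SD, n = 3) of all TPM in RD LFKO to 24.3% ± 4.90 (SD, n = 3) in HFD WT, and the TPM of all other genes divide what remains. Counts of called members are therefore also given after median-of-ratios scaling, which sets the typical gene of each library level (factors 0.751 to 1.15). The share of all genes called after scaling is not given, so scaled counts show only how member calls depend on the scaling. In these bulk livers fewer cells of a type and less RNA per cell cannot be told apart.

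Differences were tested with limma on log2(TPM + 1) in a single fit of all 24 libraries, adjusted over all 10551 genes, and a gene was called at an adjusted p under 0.05. Differences are on that log2 scale, given ± SE, and the added 1 TPM understates changes of low genes such as Abcd2. The genotype comparisons on a diet share the WT libraries of that diet, so they are set side by side as values.

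Loss of PPARα on the regular diet lowered the oxidation genes more widely than the peroxins. In RD LPKO against RD WT, 9 of 20 enzymes, 2 of 13 peroxins and Pxmp4 fell, 12 of 35 members, where 2.33% of all genes fell. A single member, Nudt7, rose, where 3.52% of all genes rose. The median difference was -0.44 over the enzymes, -0.13 over the peroxins and 0.04 over all genes tested. After scaling, 17 members fell (12 enzymes, 4 peroxins and 1 membrane protein) and none rose, with medians of -0.46, -0.15 and 0.02.

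Both genes for unsaturated chains fell. Decr2 (chr17:26081208-26090337), the peroxisomal 2,4-dienoyl-CoA reductase that prepares polyunsaturated chains for oxidation, stood at 108, 117 and 113 TPM in RD WT and at 34.4, 27.1 and 35.2 TPM in RD LPKO. Every WT library was far above every LPKO library, and the difference was -1.78 ± 0.15 (limma, adjusted p = 3.84e-07). Ech1 (chr7:28825217-28832247), a dienoyl-CoA isomerase found in peroxisomes and mitochondria, stood at 291, 250.1 and 246 TPM in RD WT and at 108, 85.04 and 106 TPM in RD LPKO, a difference of -1.39 ± 0.19 (adjusted p = 1.02e-04), again with no overlap.

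Along the main spiral the enzymes did not move alike. Acox2, the oxidase for branched chains and bile acid precursors, stood at 126, 130.3 and 123 TPM in RD WT and at 58.8, 75.7 and 64.0 TPM in RD LPKO (-0.93 ± 0.16, adjusted p = 7.65e-04). Acox3, another branched-chain oxidase, was at 13.5 ± 3.92 TPM (SD, n = 3) in RD WT and 16.1 ± 0.338 TPM (SD, n = 3) in RD LPKO, with overlapping libraries, and was not called. Hsd17b4, the D-bifunctional protein, which serves both straight and branched chains, stood at 193, 170.5 and 171 TPM in RD WT and at 93.0, 95.0 and 93.2 TPM in RD LPKO (-0.92 ± 0.13, adjusted p = 2.09e-04). All 3 LPKO libraries lay close together and far under WT. Ehhadh, the L-bifunctional protein, measured -0.69 ± 0.21 and missed the threshold (adjusted p = 0.0506), although its libraries did not overlap (127 to 192 TPM against 85.5 to 105 TPM), and it was called after scaling.

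The thiolases did not move alike either. Acaa1b stood at 742, 505 and 622 TPM in RD WT and at 263, 164 and 247 TPM in RD LPKO (-1.48 ± 0.39, adjusted p = 0.0277), while Acaa1a measured -0.44 (adjusted p = 0.176) from 119.6 ± 3.09 to 88.4 ± 11.5 TPM (SD, n = 3). Both encode 3-ketoacyl-CoA thiolase and share 758 stretches of 31 bases, 35.3% of those of Acaa1a and 45.7% of those of Acaa1b, so the division of reads between them is uncertain. Their sum, which that division cannot change, averaged 742 ± 117 TPM in RD WT against 313 ± 64.3 TPM in RD LPKO (SD, n = 3). Scp2, whose product carries a thiolase for branched chains and a sterol carrier domain, was between 2223 and 2435 TPM in RD WT and between 2291 and 2383 TPM in RD LPKO and was not called.

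Entry, exit and alpha-oxidation genes were also lower. Abcd3, the transporter for long and branched chains and the more abundant of the pair, stood at 213, 226 and 221 TPM in RD WT and at 165, 148 and 175 TPM in RD LPKO (-0.44 ± 0.12, adjusted p = 0.0334). Its relative Abcd2, a transporter of very long chains, stood at 3.90, 3.36 and 4.52 TPM against 1.04, 0.715 and 1.22 TPM (-1.31 ± 0.38, adjusted p = 0.0445). Crot (chr5:8966033-8997324), which couples shortened chains to carnitine for export to mitochondria, stood at 347, 298 and 348 TPM against 209, 152 and 193 TPM (-0.85 ± 0.16, adjusted p = 0.00239). Hacl1 (chr14:31598730-31641286), the lyase of phytanic acid alpha-oxidation, stood at 240.0, 178 and 213 TPM against 88.8, 112 and 91.3 TPM (-1.10 ± 0.19, adjusted p = 9.32e-04). None of these 4 genes had overlapping libraries. Phyh, the hydroxylase that precedes Hacl1 in the same pathway, went from 2075 ± 142 to 2236 ± 185 TPM (SD, n = 3) and was not called.

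The 3 Nudix hydrolases of the set did not move together. Nudt7, which degrades coenzyme A in the peroxisome, stood at 386, 546 and 435 TPM in RD WT and at 738, 690.0 and 836 TPM in RD LPKO (0.74 ± 0.22, adjusted p = 0.0479). It was the only member called higher in this comparison and was not called after scaling (0.71, adjusted p = 0.0772). Nudt12, which hydrolyses NADH, was at 34.9 ± 1.27 and 28.6 ± 1.75 TPM, and Nudt19, another coenzyme A hydrolase, at 33.8 ± 1.20 and 35 ± 5.50 TPM (SD, n = 3 each), neither called. Cat, Amacr, Pecr, Acox3, Scp2 and Phyh also stayed uncalled, with Cat at 1661 to 1762 TPM in RD WT and 1568 to 1661 TPM in RD LPKO. Every catalase library of LPKO lay below every one of WT, the nearest by less than 1 TPM.

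Among the peroxins the fall was limited to 2 called genes of different function. Pex11a (chr7:79735957-79743131), which promotes peroxisome elongation and division, stood at 84.5, 57.4 and 64.1 TPM in RD WT and at 26.6, 32.2 and 25.0 TPM in RD LPKO (-1.26 ± 0.21, adjusted p = 6.78e-04). Pex11g, of the same family and sharing no stretch of 31 bases with it, was at 20.7 ± 3.75 and 19.2 ± 0.830 TPM (SD, n = 3 each) and was not called. Pex16 (chr2:92374676-92381217), a membrane protein needed for new peroxisomal membrane, stood at 63.4, 68.3 and 57.1 TPM against 31.03, 32.5 and 32.5 TPM (-0.95 ± 0.19, adjusted p = 0.00395). Its partners in membrane assembly, Pex3 and Pex19, were called only after scaling. None of the 8 peroxins of matrix import (Pex2, Pex5, Pex6, Pex7, Pex10, Pex13, Pex14 and Pex26) was called before or after scaling. Pxmp4 (chr2:154585758-154603708), a small membrane protein, stood at 57.0, 42.3 and 49.9 TPM in RD WT and at 17.7, 15.8 and 16.5 TPM in RD LPKO (-1.51 ± 0.15, adjusted p = 1.62e-06), while Pxmp2, a channel of the membrane, was at 126 ± 24.2 and 125 ± 8.86 TPM (SD, n = 3).

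**Figure D1:**
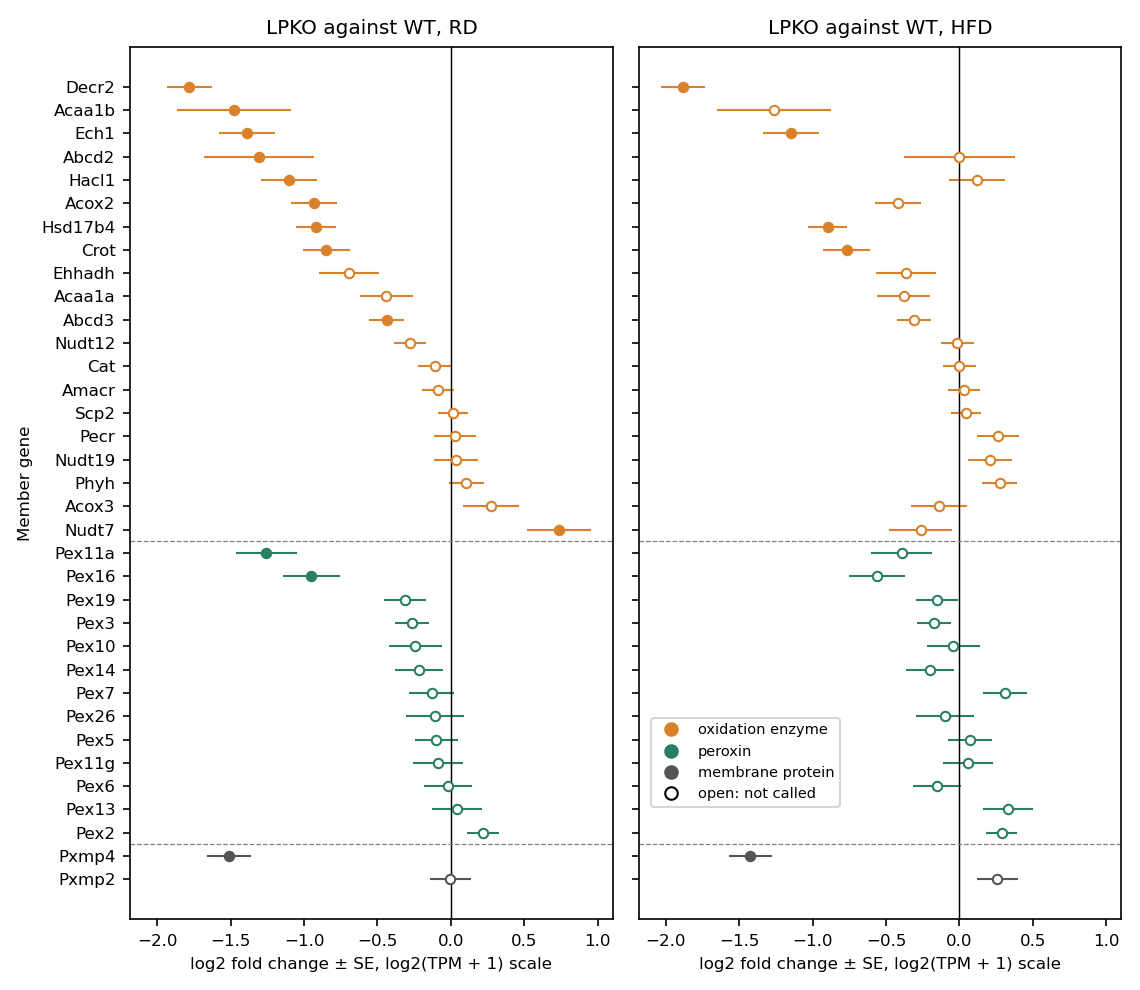
Difference of each of the 35 members between LPKO and WT on the regular diet and on the high-fat diet, as a log2 fold change on the log2(TPM + 1) scale (x axis) with its standard error, filled where called. Decr2, Pxmp4, Ech1, Hsd17b4 and Crot were called lower on both diets, and among the peroxins Pex11a and Pex16 were called on the regular diet.

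Of these 13 calls, 9 held whichever library was left out (Decr2, Pxmp4, Ech1, Hsd17b4, Pex11a, Acox2, Hacl1, Crot and Pex16). Abcd2 and Abcd3 were lost without any 1 of the 6 libraries (highest adjusted p 0.127 and 0.128), and Acaa1b and Nudt7 without any but RD WT replicate 2 (highest 0.111 and 0.189). With them moved the summed Kupffer cell markers, at 187 to 289 TPM in RD WT and 107 to 146 TPM in RD LPKO (12 genes, none at 0 in every library, 1 called lower, median -0.77). Immediate early genes such as Fos and Egr1, which respond quickly to many stimuli, summed to 40.7 to 58.0 TPM in RD WT and, without overlap, to 66.4 to 123 TPM in RD LPKO (9 genes, 6 tested, 2 called higher, median 0.97). The hepatocyte marker sum went from 67297 to 68939 TPM down to 53941 to 60139 TPM, with 0 of 8 called. Whether any of these had a part in the lower oxidation genes was not tested.

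On the high-fat diet fewer members passed, and all that did had passed on the regular diet. In HFD LPKO against HFD WT, 4 enzymes and Pxmp4 fell and none of the 13 peroxins, where 1.13% of all genes fell and 3.6% rose. Those 5 (Crot, Decr2, Ech1, Hsd17b4 and Pxmp4) were 100% of the high-fat calls and 38.5% of the regular-diet calls. After scaling there were 12 members lower on the high-fat diet, all among the 17 on the regular diet. The added genes were Acaa1a, Acaa1b, Abcd3, Acox2, Pex3, Pex16 and Pex19.

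Decr2 was at 105, 99.1 and 112 TPM in HFD WT and 29.1, 33.6 and 21.8 TPM in HFD LPKO (-1.88 ± 0.15, limma, adjusted p = 1.79e-07). Pxmp4 stood at 31.8, 38.0 and 30.5 TPM against 11.2, 15.6 and 9.28 TPM (-1.42 ± 0.15, adjusted p = 3.83e-06). For Hsd17b4 the libraries read 166, 152 and 155 TPM against 95.4, 97.9 and 63.8 TPM (-0.90 ± 0.13, adjusted p = 3.05e-04). These differences were close in size to those on the regular diet, and no library overlapped. Ech1 went from 180.3, 141 and 191 TPM to 84.1, 93.1 and 55.7 TPM (-1.15 ± 0.19, adjusted p = 9.28e-04). Crot went from 149, 169 and 175 TPM to 100.5, 100.1 and 87.8 TPM (-0.77 ± 0.16, adjusted p = 0.00706). HFD LPKO replicate 3 was the lowest of its group in all 5 genes, and Mup transcripts summed to 253464 TPM in it against 132554 and 123637 TPM in replicates 1 and 2.

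Hacl1 and Pex11a were among the members called on the regular diet only. Hacl1 was at 76.1 ± 18.2 TPM in HFD WT and 81.0 ± 3.12 TPM in HFD LPKO (SD, n = 3), and Pex11a at 36.8 ± 3.08 and 29.1 ± 10.2 TPM (SD, n = 3). In both, the HFD WT mean of deposited TPM was nearer to that of RD LPKO than to that of RD WT. The RD LPKO means were 97.2 and 27.9 TPM, and the RD WT means 210.3 and 68.7 TPM. In HFD WT against RD WT the median over all genes was -0.29. After scaling Hacl1 was still called lower there but Pex11a was not, and whether Pex11a stays nearer to RD LPKO after scaling was not tested. The difference between diets in the effect of PPARα loss was tested directly and was called for no member. Of all genes, 0.114% were called higher and 0.0569% lower. On data simulated with each gene drawn independently, this test recovered 65% of planted log2 changes of 1. At an unadjusted p under 0.05, 4 members were higher and 1 lower (8.08% of all genes). Hacl1 came closest, at 1.22 ± 0.27 (limma, adjusted p = 0.0689), and was called after scaling at 1.11.

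**Figure D2:**
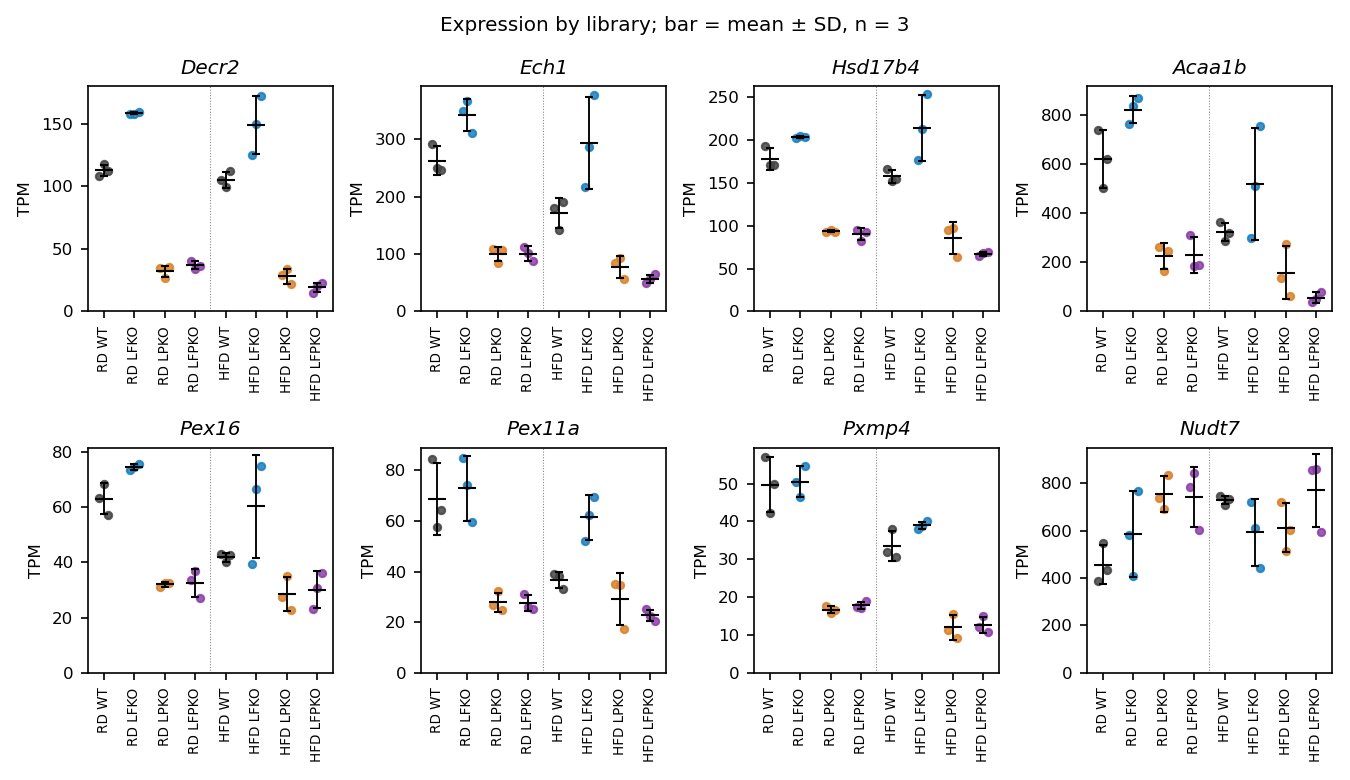
TPM (y axis, from 0) of 8 members in every library (points) with the group mean ± SD, n = 3, by diet and genotype. Decr2, Hsd17b4, Ech1, Pex16 and Pxmp4 separate the libraries labelled LPKO or LFPKO from all others, while the groups overlap for Nudt7.

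On the regular diet, no member was called between loss of both factors and loss of PPARα alone. In RD LFPKO against RD WT, 9 enzymes, 2 peroxins and Pxmp4 fell and no member rose, where 3.45% of all genes fell and 4% rose. Decr2 (-1.59 ± 0.15, adjusted p = 1.41e-06), Pxmp4 (-1.42 ± 0.15, adjusted p = 3.47e-06), Hsd17b4 (-0.97 ± 0.13, adjusted p = 9.36e-05) and Ech1 (-1.37 ± 0.19, adjusted p = 9.41e-05) led. The others were Crot, Pex11a, Hacl1, Acox2, Pex16, Acaa1b, Ehhadh and Nudt12, between -1.47 and -0.40. After scaling 16 members were lower, 11 enzymes, 4 peroxins and 1 membrane protein. The calls of Acaa1b, Ehhadh and Nudt12 were lost without at least 4 of the 6 libraries (highest adjusted p 0.102, 0.128 and 0.126). Beside these values 1 of 12 Kupffer markers (median -0.71), 1 of 7 endothelial markers (median -0.39) and 4 of 13 mitochondrial transcripts were called lower, and 2 of 6 tested immediate early genes higher (median 0.42), and their part was not tested.

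Set against RD LPKO directly, RD LFPKO had 0 of 35 members called by limma, where 0.019% of all genes were called higher and 0.104% lower, and 1 member was lower at an unadjusted p under 0.05 (5.203% of all genes). The differences ran from -0.42 (Pex26) to 0.46. Group means lay near each other for Decr2 (32.2 ± 4.46 and 36.8 ± 3.12 TPM), Hsd17b4 (93.7 ± 1.09 and 90.5 ± 6.99 TPM) and Pex16 (32.0 ± 0.848 and 32.4 ± 4.99 TPM, SD, n = 3, LPKO first). With 3 libraries a group, the absence of calls does not show that levels were equal.

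On the high-fat diet the double loss was likewise set against WT. HFD LFPKO against HFD WT had 7 enzymes and Pxmp4 lower, no peroxin and no member higher, where 1.47% of all genes fell and 1.62% rose. Acaa1b stood at 364, 288 and 321 TPM in HFD WT and at 38.4, 50.9 and 79.9 TPM in HFD LFPKO (-2.56 ± 0.39, adjusted p = 3.32e-04). Decr2 stood at 15.1, 20.2 and 22.6 TPM in HFD LFPKO, the lowest of the 8 groups (-2.41 ± 0.15, adjusted p = 8.12e-09). Ehhadh went from 76.4 ± 5.46 to 37.1 ± 8.74 TPM (SD, n = 3), a difference of -1.04 ± 0.21 (adjusted p = 0.00421). Hsd17b4 (-1.22), Ech1 (-1.56), Pxmp4 (-1.34), Abcd3 (-0.64) and Acaa1a (-0.75) completed the list. Acaa1a was lost without any of 3 libraries (highest adjusted p 0.1004), and after scaling 13 members were lower. The summed thiolases Acaa1a and Acaa1b fell from 408 ± 40.9 TPM in HFD WT to 106 ± 29.5 TPM in HFD LFPKO (SD, n = 3).

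HFD LFPKO against HFD LPKO again had 0 members called by limma, where 0.0663% of all genes were called higher and 0.284% lower. At an unadjusted p under 0.05, 9 members, all of them enzymes, were lower and none higher (10.5% of all genes). Decr2 measured -0.52 ± 0.15 (adjusted p = 0.161), Acaa1b -1.30 ± 0.39 (adjusted p = 0.18) and Ehhadh -0.68 ± 0.21 (adjusted p = 0.182). After scaling Decr2 was called at -0.48 (adjusted p = 0.0323), and without HFD LPKO replicate 3 the deposited values gave 4 called members. Over all genes, dropping 1 library gave 8 to 283 calls.

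Of all 35 members, 5 separated the 12 libraries labelled LPKO or LFPKO from the other 12 without overlap, all of them lower, where this held for 0.635% of all genes and the opposite for 0.123% of all genes and 0 members. They were Decr2 (15.1 to 40.1 TPM against 99.1 to 172 TPM), Hsd17b4 (63.8 to 97.9 against 152 to 254), Ech1 (50.3 to 113 against 141 to 376), Pxmp4 (9.28 to 18.9 against 30.5 to 57.0) and Pex16 (22.9 to 36.8 against 39.4 to 75.4). A peroxin of membrane assembly thus stands beside 3 enzymes and a membrane protein, and the gap was narrowest for Pex16. After scaling, a check added after seeing the data, 11 members separated so against 1.18% of all genes, with Acaa1a, Acaa1b, Abcd3, Pex3, Pex11a and Pex19 added.

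**Figure D3:**
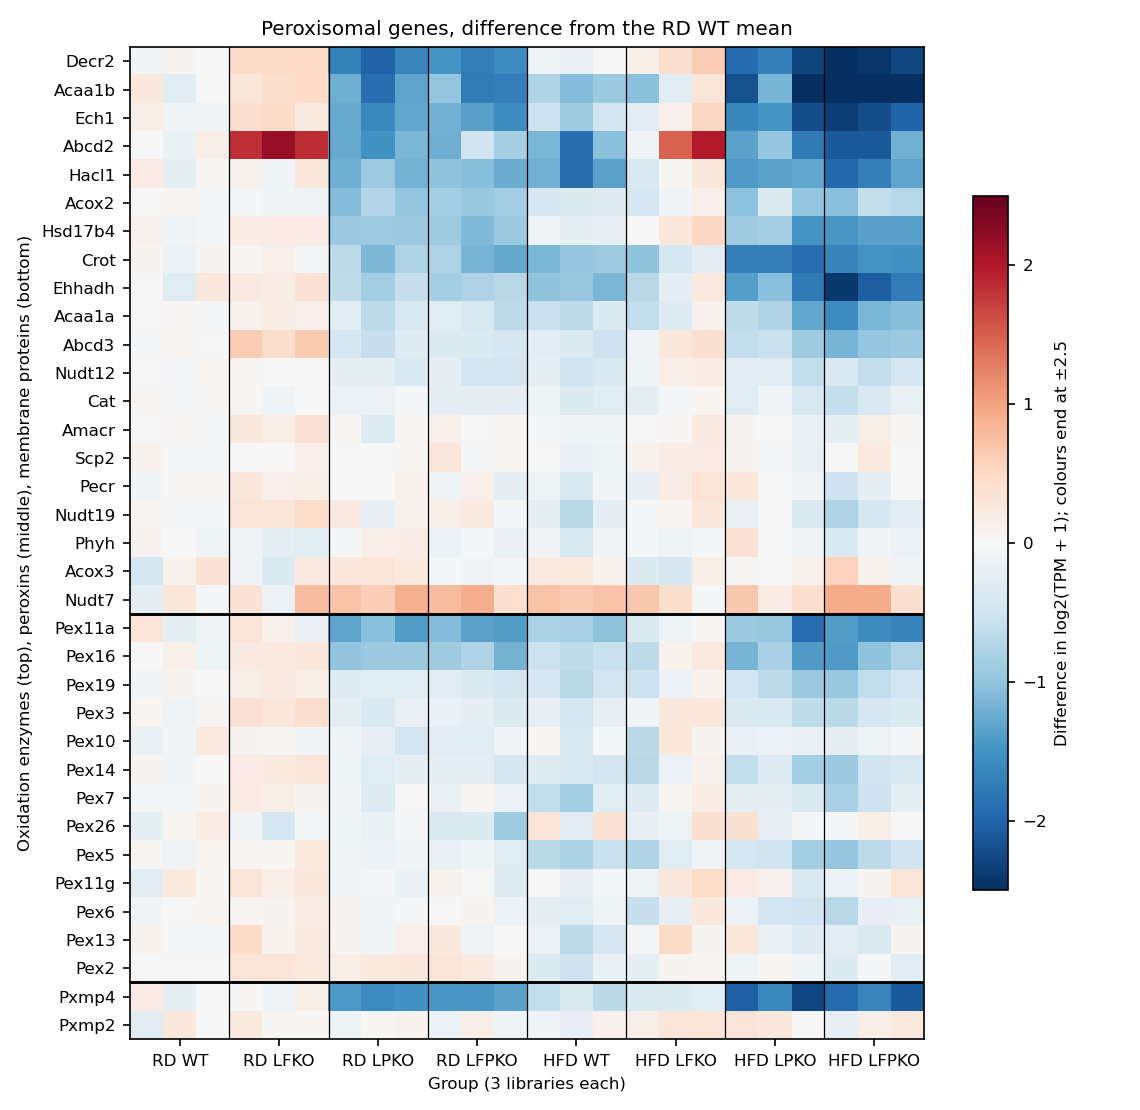
Each row is a member and each column a library, in 8 groups of 3 on the x axis, coloured by the difference in log2(TPM + 1) from that gene's mean in RD WT (blue lower, red higher), with enzymes on top, peroxins in the middle and membrane proteins at the bottom. Decr2, Ech1, Hsd17b4, Pex16 and Pxmp4 are blue in the 12 libraries labelled LPKO or LFPKO, while rows such as Scp2, Phyh and Pex10 stay pale in most libraries.

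Loss of FoxO1 alone raised few members on the regular diet. RD LFKO against RD WT had 2 enzymes higher, no peroxin and no member lower, where 1.07% of all genes rose and 0.597% fell. Abcd2 (chr15:91145871-91191799) stood at 3.90, 3.36 and 4.52 TPM in RD WT and at 16.3, 21.1 and 16.6 TPM in RD LFKO (1.95 ± 0.38, adjusted p = 0.00797). Abcd3 (chr3:121758774-121815302) stood at 213, 226 and 221 TPM against 341, 298 and 348 TPM (0.57 ± 0.12, adjusted p = 0.0135). Both transporters were higher in every LFKO library than in any WT library. Abcd2 was lost without RD LFKO replicate 2 (adjusted p = 0.0536), and Abcd3 without RD WT replicate 3, RD LFKO replicate 1 or replicate 3 (highest 0.0811). After scaling Decr2 (0.46) and Pex3 (0.33) joined them. The group mean was highest of the 8 groups in RD LFKO for 24 of 35 members (12 enzymes, 11 peroxins and 1 membrane protein), as was the hepatocyte marker sum, at 86339 to 92510 TPM. The share of all genes highest in RD LFKO was not counted, and its mean Mup share was the lowest, at 5.94%. Immediate early genes summed to 90.3 to 137 TPM in RD LFKO (1 of 6 called higher, median 1.03). The part of the Mup share, the hepatocyte markers and the immediate early genes was not tested.

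On the high-fat diet, 13 members were higher in HFD LFKO than in HFD WT (9 enzymes and 4 peroxins) and none lower, where 12.7% of all genes rose and 0.73% fell. The median was 0.43 over enzymes, 0.30 over peroxins and 0.21 over all genes, and after scaling 0.18, 0.05 and -0.01. Of the 13, 2 were called after scaling, Hacl1 and Abcd2. Hacl1 stood at 90.3, 55.5 and 82.4 TPM in HFD WT and at 160.4, 213 and 254 TPM in HFD LFKO (1.45 ± 0.19, adjusted p = 1.86e-04, and 1.20 scaled). Abcd2 stood at 1.21, 0.319 and 1.38 TPM against 3.55, 12.6 and 18.4 TPM (2.48 ± 0.38, adjusted p = 6.90e-04, and 2.36 scaled). In both genes the lowest LFKO library was above the highest WT library, and the spread within LFKO was wide.

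The other 11 were Abcd3 (0.56 ± 0.12, adjusted p = 0.00682), Nudt12 (0.44), Ech1 (0.75), Pex3 (0.44), Ehhadh (0.79), Pex7 (0.56), Pex11a (0.72), Pex13 (0.58), Nudt19 (0.49), Decr2 (0.49) and Hsd17b4 (0.42). Ech1 stood at 217, 286 and 376 TPM in HFD LFKO, and Ehhadh at 97.0, 132 and 182 TPM. Pex3, which receives membrane proteins at the peroxisome, stood at 15.2, 12.8 and 15.4 TPM in HFD WT and 17.0, 21.5 and 21.7 TPM in HFD LFKO. Pex7, the import receptor for thiolase and Phyh, stood at 27.8, 23.2 and 35.1 TPM against 34.4, 44.4 and 49.3 TPM and was a called gene with overlapping libraries. Pex11a stood at 39.0, 38.1 and 33.3 TPM against 52.2, 62.4 and 69.6 TPM.

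The HFD LFKO libraries differed widely among themselves. Replicates 1, 2 and 3 held 174190, 107765 and 64616 TPM of Mup transcripts, and Acaa1b stood at 299, 511 and 754 TPM in them. The stellate cell marker sum was 48.6 to 69.7 TPM in HFD WT and 103 to 110 TPM in HFD LFKO (3 of 6 tested markers called higher, median 0.63), and the hepatocyte sum 40334 to 53181 and 65900 to 89600 TPM (1 of 8 called higher, median 0.16). The hepatocyte sum is mostly Alb, which averaged 27150 TPM in HFD WT and 54028 TPM in HFD LFKO. The part of the Mup share and of cell makeup in these calls was not tested beyond the scaling. Without HFD WT replicate 2 or HFD LFKO replicate 2 the count fell to 3, and without HFD LFKO replicate 3 to 2. Every called gene except Hacl1 and Abcd2 was lost in at least 1 of those omissions. Over all genes, dropping 1 library gave 199 to 3501 calls. A test of whether FoxO1 loss acted differently on the 2 diets called no member, where 0% of all genes were called higher and 0.00948% lower. At an unadjusted p under 0.05, 3 members were higher and 1 lower (12.2% of all genes), with Hacl1 at 1.37 ± 0.27 (limma, adjusted p = 0.0632).

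With PPARα also missing, levels were lower than with FoxO1 missing alone. HFD LFPKO against HFD LFKO had 13 enzymes, 5 peroxins and Pxmp4 lower, 19 of 35 members, and none higher, where 8.74% of all genes fell and 1.85% rose. Decr2 (-2.89 ± 0.15, adjusted p = 1.24e-10), Ech1 (-2.31 ± 0.19, adjusted p = 7.36e-08), Hsd17b4 (-1.64 ± 0.13, adjusted p = 7.16e-08) and Acaa1b (-3.15 ± 0.39, adjusted p = 1.44e-05) were among them. The peroxins were Pex11a (-1.39), Pex16 (-0.95), Pex3 (-0.65), Pex19 (-0.49) and Pex7 (-0.48), so all 3 genes of membrane assembly were included. The libraries of Pex19 and Pex7 overlapped. After scaling 18 members were lower, 13 enzymes, 4 peroxins and 1 membrane protein. The median over all genes was -0.13 as deposited and 0.003 after scaling. The mean Mup share was 11.6% in HFD LFKO and 23.5% in HFD LFPKO, and its part was not tested beyond the scaling. With the 2 groups fitted alone 11 members were called, and the share of all genes called in that fit is not given. Acox2, Nudt19, Pex19 and Pex7 were lost without HFD LFKO replicate 3 or other single libraries (highest adjusted p 0.0699, 0.0958, 0.207 and 0.244). The same contrast on the regular diet had 11 enzymes, 4 peroxins (Pex11a, Pex16, Pex3 and Pex19) and Pxmp4 lower, where 3.13% of all genes fell and 1.95% rose, and all 16 were also called on the high-fat diet. After scaling 18 members were lower on the regular diet. Abcd2 gave the largest regular-diet difference, -2.79 ± 0.38 (adjusted p = 6.30e-05), from 18.0 ± 2.67 TPM in RD LFKO to 1.78 ± 0.691 TPM in RD LFPKO (SD, n = 3). Nudt12 and Pex19 were lost there without any but RD LFPKO replicate 1 (highest 0.146 and 0.125).

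Departure from additivity asks whether the double loss differs from the sum of the single losses. On the high-fat diet 10 enzymes and 2 peroxins were called lower than the sum and no member higher, where 10.5% of all genes were lower and 0.663% higher. Hacl1 led at -1.76 ± 0.27 (limma, adjusted p = 6.44e-04), followed by Abcd2 at -2.92 ± 0.53 (0.00294), Abcd3 at -0.89 ± 0.17 (0.00354), Ehhadh at -1.47 ± 0.29 (0.00471), Decr2 at -1.01 ± 0.21 (0.00739) and Ech1 at -1.17 ± 0.27 (0.0114). These 6, all enzymes or transporters, were also called after scaling, at -1.47, -2.81, -0.60, -1.18, -0.72 and -0.87 in the same order. Abcd2 averaged 0.972 ± 0.572 TPM in HFD WT, 0.957 ± 0.534 in HFD LPKO and 0.471 ± 0.561 in HFD LFPKO (SD, n = 3). In HFD LFKO it averaged 11.5 ± 7.49 TPM (SD, n = 3). From so low a WT level a fall on PPARα loss could hardly show. The Abcd2 departure therefore mainly reflects the HFD LFKO level, which was not kept in HFD LFPKO. Hsd17b4, Nudt19, Pex7, Nudt12, Acaa1b and Pex11a were called on the deposited values alone. With only the 4 high-fat groups in the fit, 1 of the 12 was called, Hacl1. Beside these values 3 of 6 stellate markers (median -0.95), 1 of 8 hepatocyte markers and 1 of 13 mitochondrial transcripts were called lower, and their part was not tested. The count was 6 without HFD WT replicate 2, HFD LFKO replicate 3 or HFD LPKO replicate 2, 7 without HFD LPKO replicate 1 and 20 without HFD LFKO replicate 1. Over all genes, dropping 1 library gave 431 to 2611 calls. On the regular diet limma called 0 members, where 0.0758% of all genes were higher and 0.18% lower, with 2 members lower at an unadjusted p under 0.05 (7.01% of all genes), Abcd3 at -0.52 ± 0.17 (adjusted p = 0.39) and Abcd2 at -1.49 ± 0.53 (adjusted p = 0.473).

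**Figure D4:**
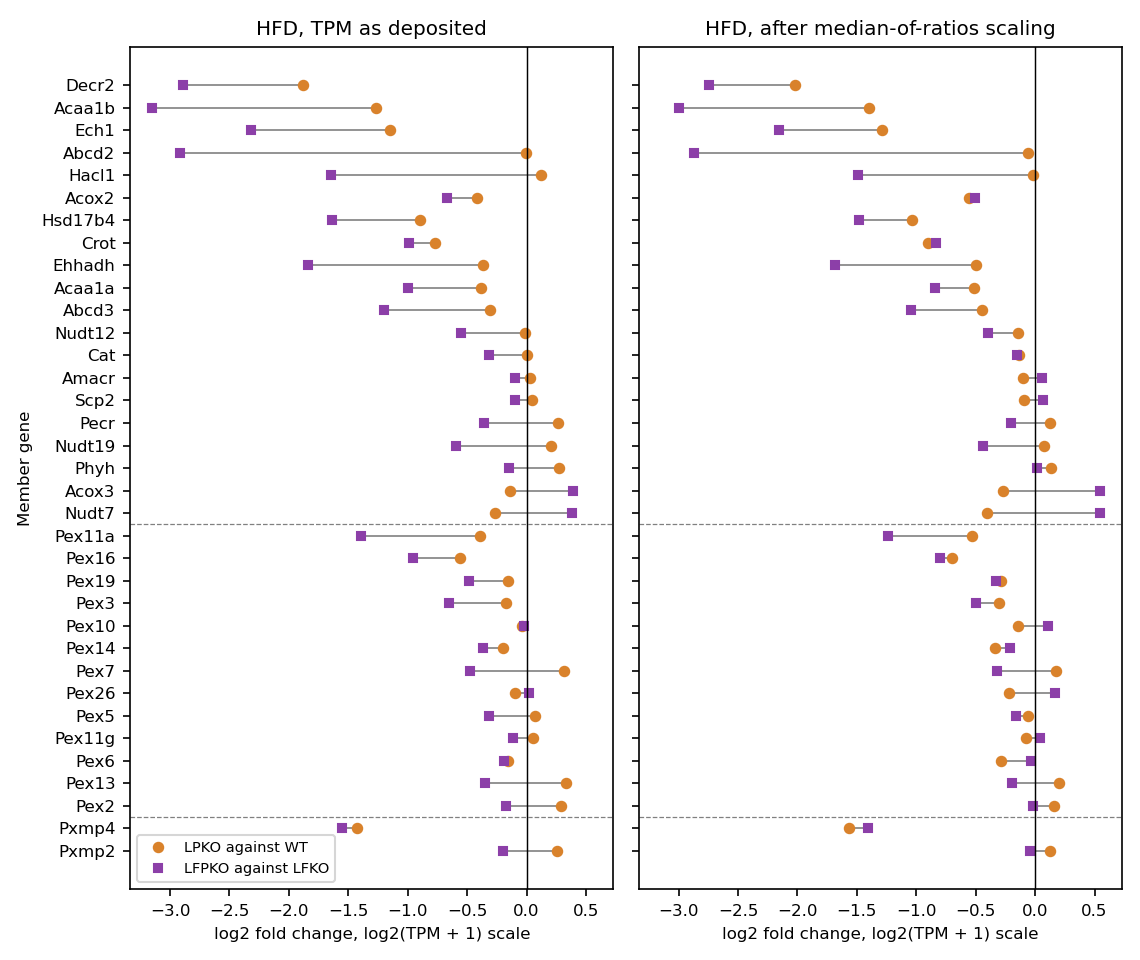
Differences of all 35 members (y axis) on the high-fat diet, on the log2(TPM + 1) scale (x axis), for LPKO against WT (circles) and LFPKO against LFKO (squares), on deposited TPM at left and after scaling at right. The line between the 2 marks is the departure from additivity, -1.76 for Hacl1 and -2.92 for Abcd2 at left and -1.47 and -2.81 at right. Mean Abcd2 was under 1 TPM in HFD WT, HFD LPKO and HFD LFPKO, so a fall from WT could hardly show for it.

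The high-fat diet itself lowered members of both kinds in WT. In HFD WT against RD WT, 8 enzymes, 6 peroxins and Pxmp4 fell and Nudt7 rose, where 29.8% of all genes fell and 1.05% rose. The medians were -0.36 over enzymes, -0.39 over peroxins and -0.29 over all genes, and after scaling 0.00, -0.04 and 0.02. Here the peroxins moved as much as the enzymes, and most of the move was shared with all genes. After scaling 6 members were called, namely Hacl1, Crot, Ehhadh, Pex5 and Abcd2 lower and Nudt7 higher.

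Hacl1 fell from 240.0, 178 and 213 TPM to 90.3, 55.5 and 82.4 TPM (-1.47 ± 0.19, limma, adjusted p = 4.77e-05, and -1.11 scaled). Crot fell from 347, 298 and 348 TPM to 149, 169 and 175 TPM (-1.01 ± 0.16, adjusted p = 4.28e-04, and -0.64 scaled). Ehhadh fell from 158, 127 and 192 TPM to 77.4, 81.2 and 70.4 TPM (-1.03 ± 0.21, adjusted p = 0.00233, and -0.67 scaled). No library overlapped in these 3 genes. Pex5, the main receptor that carries matrix enzymes to the peroxisome, fell from 44.3, 40.8 and 44.9 TPM to 26.9, 24.4 and 29.1 TPM (-0.68 ± 0.15, adjusted p = 0.00378, and -0.32 scaled). It was the only peroxin called after scaling. Nudt7 went the other way, from 386, 546 and 435 TPM to 744, 708 and 735 TPM (0.69 ± 0.22, adjusted p = 0.0237, and 1.06 scaled), and every high-fat library was above every regular-diet one.

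The remaining calls on the deposited values were Pex11a (-0.87), Pex7 (-0.60), Pex16 (-0.57), Pex19 (-0.53), Pex2 (-0.34), Pxmp4 (-0.55), Abcd2 (-1.36), Ech1 (-0.62), Acaa1a (-0.52), Abcd3 (-0.38) and Nudt12 (-0.36). Pex2, a ubiquitin ligase of receptor recycling, measured 0.01 after scaling, opposite in sign. The count was 6 without HFD WT replicate 2 and 9 without RD WT replicate 3, and Nudt7 was lost without any of 3 libraries (highest adjusted p 0.0750). Over all genes, dropping 1 library gave 920 to 3590 calls. Beside these values, the mean Mup share was 9.34% ± 1.96 in RD WT and 24.3% ± 4.90 in HFD WT (SD, n = 3), 4 of 8 hepatocyte markers and 5 of 6 stellate markers were called lower (medians -0.46 and -1.002), and their part in these calls was not tested beyond the scaling. The double loss by diet called no member, where 0% of all genes were called higher and 0.0284% lower. At an unadjusted p under 0.05, 3 members were higher and 2 lower (7.54% of all genes), Decr2 measuring -0.82 ± 0.21 (limma, adjusted p = 0.217) and -0.93 after scaling, where it was called.

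The contrast between oxidation and assembly genes can be read inside each library, where scaling has almost no part. The mean log2(TPM + 1) of the 20 enzymes minus that of the 13 peroxins was 2.65 ± 0.0360 in RD WT, 2.76 ± 0.0486 in RD LFKO, 2.39 ± 0.0709 in RD LPKO and 2.42 ± 0.0407 in RD LFPKO (SD, n = 3). On the high-fat diet it was 2.60 ± 0.0296 in WT, 2.77 ± 0.0629 in LFKO, 2.31 ± 0.0866 in LPKO and 2.11 ± 0.0168 in LFPKO (SD, n = 3). All 12 libraries labelled LPKO or LFPKO lay between 2.10 and 2.46 and all others between 2.58 and 2.82. The gap between enzymes and peroxins was thus smaller in every library labelled PPARα-/-, a description for which no test was run. Within the high-fat diet LFPKO (2.10 to 2.13) lay under LPKO (2.25 to 2.41), and on both diets LFKO lay above WT without overlap. The LFKO shift leaned on Abcd2, 1 of the 20 enzymes, which measured 1.95 (RD) and 2.48 (HFD) against WT. Medians of LFKO against WT were 0.19 over enzymes and 0.18 over peroxins on the regular diet. On the high-fat diet they were 0.43 and 0.30. WT itself differed little between diets, 2.62 to 2.69 on the regular diet and 2.58 to 2.63 on the high-fat diet. Summed TPM ran the other way: the enzymes summed to 9255 ± 368 TPM in RD WT against 8406 ± 334 TPM in RD LPKO, and the peroxins to 443 ± 7.39 and 344 ± 5.22 TPM (SD, n = 3), so by sums the peroxins were lower by the greater share. The abundant and steady Scp2, Phyh and Cat dominate the enzyme sum, whereas the mean of logs gives each gene the same weight. Most of the fall of the peroxin sum lay in Pex11a (mean 68.7 to 27.9 TPM) and Pex16 (62.9 to 32.0 TPM). The median over the 13 peroxins was -0.13 in that comparison.

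**Figure D5:**
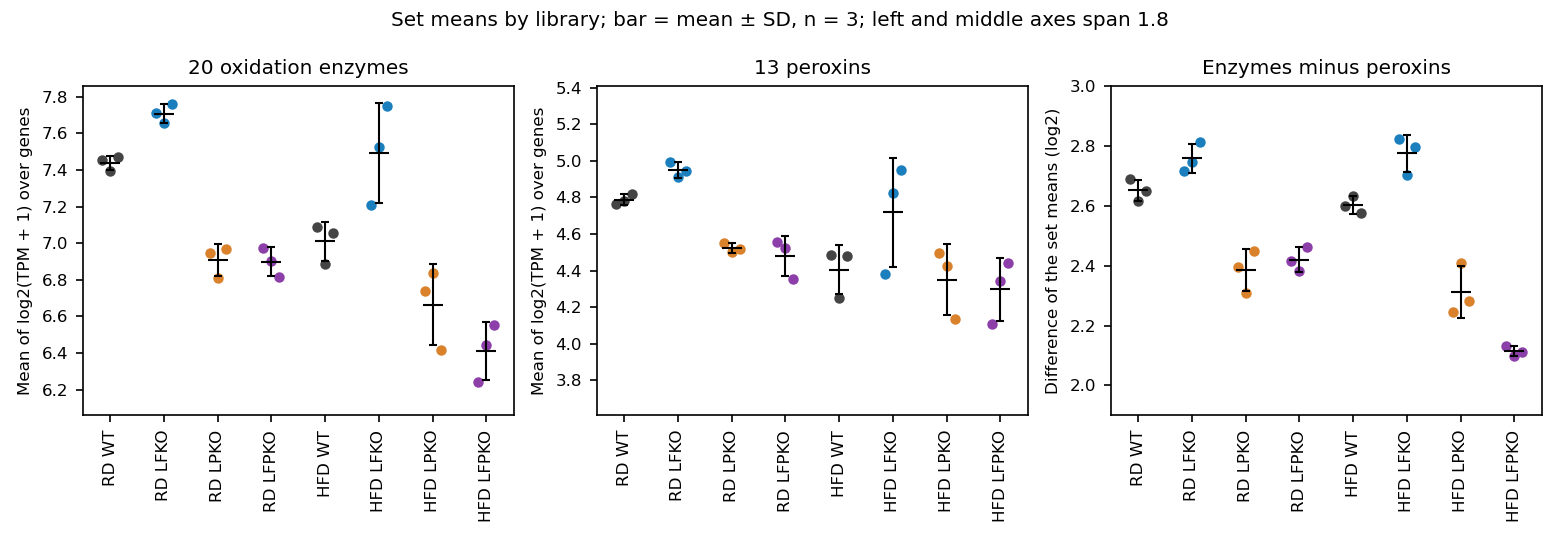
Mean log2(TPM + 1) of the 20 enzymes, of the 13 peroxins and the difference between them, with 1 point per library and the group mean ± SD, n = 3, by diet and genotype on the x axis. In the difference the 12 libraries labelled LPKO or LFPKO lie between 2.10 and 2.46 and all others between 2.58 and 2.82.

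Members differed widely in how far they moved over the study. The highest group mean was 38.2 times the lowest for Abcd2, 14.6 times for Acaa1b, 8.22 times for Decr2, 6.01 times for Ech1, 5.04 times for Ehhadh and 4.19 times for Pxmp4. At the other end it was 1.20 times for Scp2, 1.24 for Phyh, 1.25 for Pxmp2, 1.26 for Pex10, 1.27 for Amacr, 1.29 for Pex11g, 1.31 for Cat and 1.35 for Pecr. The steadiest genes include the most abundant members, Scp2 (2018 to 2816 TPM over all libraries), Phyh and Cat, and also a low one, Pex10, a ubiquitin ligase of import at 2.504 to 3.14 TPM by group. The lowest group mean lay in HFD LFPKO for 17 of 35 members, 13 enzymes and 4 peroxins. The share of all genes lowest in HFD LFPKO was not counted. Its mean Mup share was 23.5%, beside 9.34% in RD WT, and the part of that share was not tested.

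The other peroxisomal genes, a further list of 59 of which 53 were tested, divided in a similar way on PPARα loss. In RD LPKO against RD WT, 12 of 24 tested oxidation and lipid genes, 1 of 20 other matrix and membrane genes and 0 of 9 assembly and fission genes were lower, with medians of -0.60, 0.11 and 0.10, and 1 gene, Mpv17l, was higher (0.64 ± 0.17). In that comparison 2.33% of all genes fell and 3.52% rose. Eci2, the peroxisomal enoyl-CoA isomerase, led at -1.76 ± 0.17, with Acsl1 (-1.41), an acyl-CoA synthetase, Hsdl2 (-1.20) and Dhrs4 (-1.03). RD LFPKO against RD WT had 13 lower, beside 3.45% of all genes, with Eci2, Slc27a2 (-1.03), Acsl1 (-1.53) and Hsdl2 in the lead. There 1 was higher, Ddo (0.52), beside 4% of all genes. In HFD LPKO against HFD WT 8 were lower, led by Eci2 (-1.61), beside 1.13% of all genes. There 4 were higher, beside 3.6% of all genes, among them the mevalonate pathway kinases Pmvk (2.18) and Mvk (1.48). HFD LFPKO against HFD LFKO had 24 lower (19 of 24, 4 of 20 and 1 of 9 by the same classes), beside 8.74% of all genes. Eci2 measured -2.03 and Hsdl2 -1.78. For FoxO1 loss 2 were higher on the regular diet, Idh1 (0.71) and Lonp2 (0.53), beside 1.07% of all genes. With the high-fat diet 17 were higher, beside 12.7% of all genes, and after scaling 5 were higher and 1 lower. Departure from additivity on that diet was called downward for 23, beside 10.5% of all genes, and for 10 after scaling. The high-fat diet in WT had 23 lower, beside 29.8% of all genes, with Pmvk at -2.12 and Mvk at -1.31. After scaling 3 were lower and 3 higher, and the median went from -0.32 to 0.03.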

How the data were processed

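Livers of 24 samples were measured by sequencing of polyadenylated RNA. The authors deposited a table of TPM per gene, made with kallisto on GRCm38 (mm10), per the submitters' processing notes. No source used here gives the kallisto version or the annotation. Deposited TPM of named genes summed to 956785 to 993524 per library. A row without a gene name (0.0104 to 0.0250% of TPM) was left out. From the deposited TPM, genes with a mean of at least 1 TPM (10551) were tested on log2(TPM + 1) with limma 3.58.1 (trend, R 4.3.3), with 8 group means in a single fit (16 residual degrees of freedom), two-sided, with Benjamini-Hochberg adjustment within each of 16 comparisons and a threshold of 0.05. On simulated data for RD LPKO against RD WT, 90% of planted log2 changes of 1 and 97% of those of 2 were recovered among 10551 genes, with 12 false calls of 199. For LPKO by diet the shares were 65% and 96%, with 12 false calls of 173. Each gene was simulated independently around a common mean, with no other changed genes and no shift shared by a library. These rates may therefore not hold for the measured libraries.

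The members and lists were chosen with earlier results of these data known. All members may be named, with every library for up to 10 called members with the smallest adjusted p, for called members against their set's direction and for related pairs, and up to 4 called genes each way from the other peroxisomal list. Alternatives were a pseudocount of 0.1, no minimum or 5 TPM, median-of-ratios scaling, leaving out 35 Mup and mitochondrial rows, the compared groups alone, a block for the replicate number and, in turn, dropping each library. Cell type markers were 8 hepatocyte, 12 Kupffer, 7 endothelial, 7 stellate, 5 cholangiocyte, 5 lymphocyte, 3 neutrophil and 3 adipocyte genes. Of the endothelial genes 0 were called in LPKO against WT on either diet and 1 in RD LFPKO against RD WT, of the cholangiocyte and neutrophil genes 0 were called in LPKO against WT, and no lymphocyte or adipocyte gene reached 1 TPM on average. Figures used matplotlib 3.10.9 with Python 3.11.15.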

Additional observations from a re-analysis of the deposited data

Results flagged for a closer look

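On the high-fat diet the effect of PPARα loss differed with and without FoxO1 by a test of the difference itself (limma) in 12 members, all lower than additive. The differences were -2.92 for Abcd2, -1.89 for Acaa1b, -1.76 for Hacl1, -1.47 for Ehhadh, -1.17 for Ech1, -1.01 for Decr2, -0.998 for Pex11a, -0.89 for Abcd3, -0.80 for Nudt19, -0.79 for Pex7, -0.74 for Hsd17b4 and -0.54 for Nudt12. Mean Abcd2 was under 1 TPM in HFD WT, HFD LPKO and HFD LFPKO, so a fall from WT could hardly show. Its difference mainly reflects the HFD LFKO level. Abcd2, Hacl1, Ehhadh, Ech1, Decr2 and Abcd3 were also called after scaling, and Hacl1 alone with only the 4 high-fat groups in the fit. Beside these values, 10.5% of all genes were called lower in the same test, and the mean Mup share was 24.3% in HFD WT, 11.6% in HFD LFKO, 17.0% in HFD LPKO and 23.5% in HFD LFPKO, whose part was not tested beyond the scaling. In the same test 3 of 6 stellate markers (median -0.95) and 1 of 8 hepatocyte markers were called lower, and their part was not tested.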

How the results depend on the processing

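Over the 116 calls of single members, scaling kept 87, lost 28 and turned 1, the 5 TPM minimum lost 0 of the 109 it could test (the 7 calls of Abcd2 fell under it), the pseudocount of 0.1 lost 3, no minimum lost 17 and the compared groups alone lost 35. The turned call was Pex2 in HFD WT against RD WT, at 0.00778 after scaling and 0.00700 without Mup and mitochondrial rows. Counts of called members moved as follows. RD LFKO against WT went from 2 to 1 with a pseudocount of 0.1, 1 at a 5 TPM minimum, 4 after scaling and 4 with the groups alone. RD non-additivity went from 0 to 1 with the groups alone. HFD LFKO against WT went from 13 to 8 with no minimum, 2 after scaling, 3 without Mup and mitochondrial rows and 2 with the groups alone. After scaling and without those rows, HFD LPKO against WT went from 5 to 12 and 12, HFD LFPKO against WT from 8 to 13 and 13, HFD LFPKO against LPKO from 0 to 1 and 1, HFD non-additivity from 12 to 6 and 6, HFD WT against RD WT from 16 to 6 and 7, and LPKO by diet and LFPKO by diet each from 0 to 1 and 1. With the groups alone HFD LFPKO against LFKO went from 19 to 11 and HFD non-additivity from 12 to 1. The groups alone leave fewer libraries to estimate the spread, and the cause of the other moves was not tested. The share of all genes called under these settings is not given, so these counts show only how member calls depend on the setting.

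Leaving out 1 library gave 1 to 2 for RD LFKO against WT, 2 to 19 for HFD LFKO against WT, 0 to 4 for HFD LFPKO against LPKO, 6 to 20 for HFD non-additivity, 6 to 18 for HFD WT against RD WT, 0 to 1 for LFKO by diet (1 without HFD LFKO replicate 1) and 0 to 1 for LPKO by diet (1 without HFD LPKO replicate 3). Over all genes, in the same order, the counts were 77 to 173, 199 to 3501, 8 to 283 and 431 to 2611. For the remaining comparisons they were 920 to 3590, 0 to 90 and 3 to 60.

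Groups share replicate numbers, and the values do not settle whether these pair the samples. Over 84 same-numbered pairs the median correlation of deviations was -0.00437, with 12 over 0.1 and a highest of 0.387. Over 168 pairs of different number the median was 0.000728, with 20 over 0.1 and a highest of 0.250. Of 24 libraries, 11 were closest to a library with their own number. With a replicate block RD LPKO against WT had 12 members called in place of 13 and HFD LFKO against WT 11 in place of 13, and the counts of the other comparisons did not move. TPM carry no depth, so no counting error can be given.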
